A study of Mus musculus with 6 samples.

Results

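Gpihbp1, Lpl, Cd36, Fabp4, Fabp5, Pparg and Aplnr were followed in endothelial cells (EC) of the infant and the young adult mouse lung. These 7 genes, which handle lipid at the capillary wall or mark general capillary cells, were taken by symbol from a table of 12623 genes. They filled 12 of its 17241 transcript rows, because Cd36 was listed in 5 rows and Pparg in 2. All 7 reached the expression filter of 1 RPKM (reads per kilobase of transcript, scaled to the mapped reads of the library) in at least 1 library.

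Both groups were C57BL/6N mice, which the methods describe as female, but the infant libraries held a Y-linked transcript, as given further on. Infant mice were in the second week after birth, a time of vessel growth in the lung, and young adult mice were in about the third month of life. By the methods, collagenase was used to dissociate the lungs, and flow cytometry was used to sort viable cells positive for CD31 and CD34 and negative for PTPRC, LYVE1, PDPN and LY76. Each age was represented by 3 libraries, described as independent biological replicates and made from amplified cDNA of small amounts of RNA.

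Capillary EC take up fat from the blood in several steps. Lipoprotein lipase, the product of Lpl, is bound by GPIHBP1 on the luminal surface of capillaries and releases fatty acids from triglyceride-rich lipoproteins. CD36 takes part in their uptake, FABP4 and FABP5 carry them in the cytosol, and PPARG is a nuclear receptor that responds to fatty acids and controls genes of lipid handling. In the lung, APLNR, the apelin receptor, marks general capillary cells, whereas its ligand apelin is made by aerocytes, the other capillary cell type.

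The letters AGGTCA form the core of the DNA element bound by PPARG and other nuclear receptors, so the start regions of Cd36, the fatty acid receptor with the highest level, and of Pparg itself are shown with these letters marked. The sequences were taken from RefSeq on GRCm38.p6, the genome whose coordinates mm10 uses. Promoter entries matched 2 of the 7 genes, 1 window for Cd36 and 3 for Pparg. Bases are written 5′ to 3′ on the strand of the gene in lower case, and capitals mark AGGTCA or its reverse complement TGACCT. The Cd36 sequence is the 250 bases before the start, at chr5:17835897-17836146 on the minus strand, and the Pparg sequences are 30-base stretches at chr6:115361104-115361133 and chr6:115362319-115362348 on the plus strand.
Cd36: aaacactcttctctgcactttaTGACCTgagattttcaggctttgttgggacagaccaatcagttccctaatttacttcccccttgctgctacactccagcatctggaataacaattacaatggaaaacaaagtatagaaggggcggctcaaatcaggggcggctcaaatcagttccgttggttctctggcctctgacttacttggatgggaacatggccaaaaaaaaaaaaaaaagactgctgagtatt
Pparg, first start: agccgccgcctcAGGTCAgagtcgccccgg
Pparg, second start: ttttatataagggacgcgaggAGGTCAaga
Counted from the starts of the promoter entries, the Cd36 match began at position -228 and those of Pparg at -28 and -9. The last Pparg window, upstream of chr6:115422066, held no match in the 250 bases before the start. AGGTCA on either strand was found in 16.3% of all 32851 promoter windows of 300 bases (5340 windows), and AGGTCANAGGTCA, which holds AGGTCA in tandem, was found in 13 windows (0.04%) and in 0 of the 4 windows of Cd36 and Pparg. A match describes letters in a window and not a bound site.

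Among the 7 genes, Gpihbp1, Cd36 and Fabp4 rose from infant to young adult EC (ratios of mean RPKM of 2.20, 1.97 and 1.90). For Lpl, Fabp5, Pparg and Aplnr the difference did not pass the test. A gene was called when its limma adjusted p (Benjamini-Hochberg over 12458 genes) stayed below 0.05 and its log2 fold change, taken from log2(RPKM + 1), exceeded 0.81 in size. By this rule 3 of 7 genes were called higher and 0 lower, against 3.33% of all genes called higher, 8.1% called lower and 11.4% called in either direction. The groups did not overlap for 3 of the 7 genes, against 43.4% of all genes tested. The median log2 fold change was 0.90 over the 7 genes and -0.07 over all genes tested. All values come from bulk RNA, in which fewer cells of a type and less RNA per cell cannot be told apart.

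The calls rested on few libraries. Without infant 1, infant 3, young adult 1 or young adult 2, 0 of the 7 genes were called, without infant 2, 4 were called (Gpihbp1, Lpl, Cd36 and Fabp4), and without young adult 3, 3 were called (Gpihbp1, Lpl and Fabp4). Over all 12458 genes, 927 were called without infant 1, 950 without infant 3, 843 without young adult 1 and 865 without young adult 2. Without infant 2 there were 1874 calls and without young adult 3 there were 1220, against 1424 with all 6 libraries. Losing calls in such fits was thus not particular to the 7 genes. The direction of each of the 7 genes was kept in all 6 of these fits.

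**Figure D1:**
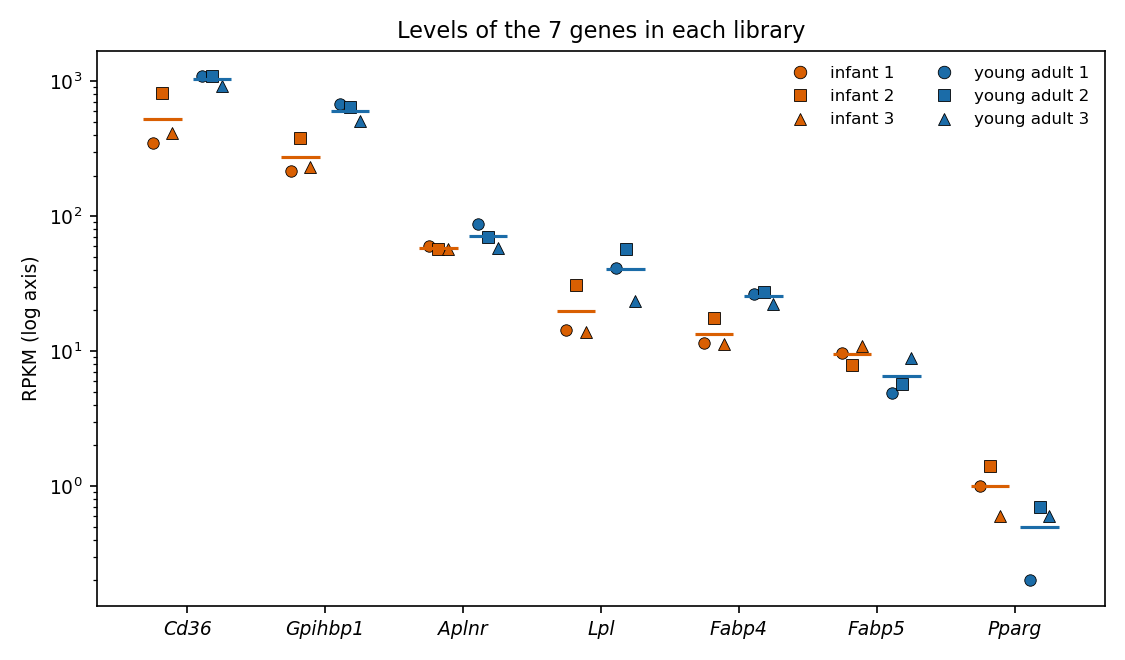
RPKM of the 7 genes in each library on a log axis, with the mean of each age group as a line. Gpihbp1, Cd36 and Fabp4 are the genes whose 3 young adult libraries all lie above the 3 infant libraries.

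Gpihbp1, the anchor of lipoprotein lipase on the capillary surface (NM_026730, chr15:75596630-75598213, plus strand), was listed at 215.8, 377.6 and 232.0 RPKM in infant replicates 1 to 3. The young adult replicates were at 672.8, 640.3 and 503.2 RPKM. The groups did not overlap, and the lowest young adult library stood 125.6 RPKM above the highest infant library. The mean rose from 275.1 ± 89.1 to 605.4 ± 90.0 RPKM (SD, n = 3 each). The log2 fold change was 1.17 ± 0.24 (SE, limma adjusted p = 0.0137), with a 95% confidence interval of 0.61 to 1.73. Its limma adjusted p was 0.0504 without infant 1, 0.0512 without infant 3, 0.0606 without young adult 1 and 0.066 without young adult 2, with log2 fold changes between 1.02 and 1.12 in these fits. With Gpihbp1 ranked by level among 12623 genes, the infant libraries gave ranks 129, 76 and 134 and the young adult libraries ranks 32, 37 and 56.

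Lpl, the gene of the lipase that GPIHBP1 binds (chr8:68880555-68906932, plus strand), was far lower, at 14.3, 31.1 and 13.9 RPKM in the infant libraries. The young adult libraries held 41.5, 57.2 and 23.5 RPKM. The groups overlapped, because infant 2 lay above young adult 3. The means were 19.8 ± 9.82 and 40.7 ± 16.9 RPKM, a ratio of 2.06. The log2 fold change of 1.02 ± 0.38 had an interval of 0.14 to 1.90 and did not pass the test (limma adjusted p = 0.0861). It passed without infant 2 (1.38, limma adjusted p = 0.012) and without young adult 3 (1.36, limma adjusted p = 0.0497).

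Cd36, the scavenger receptor and fatty acid receptor (NM_001159556, chr5:17781690-17888959, minus strand), had the highest level of the 7 genes in both groups. Its infant libraries were at 349.0, 812.0 and 409.7 RPKM, and its young adult libraries at 1084.1, 1093.0 and 923.8 RPKM. The groups did not overlap, but infant 2 lay closer to young adult 3 than to the other infant libraries. The mean rose from 523.6 ± 251.6 to 1034 ± 95.2 RPKM. The log2 fold change was 1.08 ± 0.31 (limma adjusted p = 0.0402), with an interval of 0.36 to 1.80. Of the 6 fits that left out 1 library, only the fit without infant 2 kept this call. The limma adjusted p of Cd36 was 0.12 without infant 1 (log2 fold change 0.84), 0.118 without infant 3 (0.95), 0.12 without young adult 1 (1.04), 0.131 without young adult 2 (1.03) and 0.0849 without young adult 3 (1.16). The 5 transcript rows of Cd36 differed little, and the highest was 1.06 times the lowest in each library, although the rows begin at 4 different 5′ ends. The window shown above, chr5:17835897-17836146, does not border any of these ends, of which chr5:17835696 is the nearest. The deposited values do not separate the starts of Cd36 from each other.

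Fabp4, a cytosolic fatty acid binding protein (NM_024406, chr3:10204342-10208616, minus strand), was at 11.4, 17.6 and 11.3 RPKM in the infant libraries. It was at 26.6, 27.5 and 22.5 RPKM in the young adult libraries. The groups did not overlap and stood 4.9 RPKM apart at their nearest libraries. The mean rose from 13.4 ± 3.61 to 25.5 ± 2.67 RPKM, with a log2 fold change of 0.90 ± 0.17 (limma adjusted p = 0.0116) and an interval of 0.50 to 1.31. The fold change lay near the threshold, which is 0.81 on the log2 scale. Without infant 3 it was under the threshold (0.80, limma adjusted p = 0.0437), as it was by a small margin without infant 1 (limma adjusted p = 0.0461). Without young adult 1 and young adult 2 the limma adjusted p of Fabp4 was 0.0517 and 0.0573.

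Fabp5, the related binding protein (NM_010634, chr3:10012585-10016610, plus strand), had the opposite sign. Its infant libraries were at 9.7, 7.9 and 11.0 RPKM and its young adult libraries at 4.9, 5.7 and 8.9 RPKM. The groups overlapped, because young adult 3 lay above infant 2. The means were 9.53 ± 1.56 and 6.5 ± 2.12 RPKM, and the log2 fold change of -0.52 ± 0.20 (interval -0.99 to -0.04) did not pass the test (limma adjusted p = 0.0986). Fabp5 has processed copies in the mouse genome, so its reads can be shared and its level is uncertain.

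Pparg, the nuclear receptor (NM_011146, chr6:115360879-115490404, plus strand), was close to the lower end of the scale. It was listed at 1.0, 1.4 and 0.6 RPKM in the infant libraries and at 0.2, 0.7 and 0.6 RPKM in the young adult libraries. At this level the rounding of the table to 0.1 RPKM is a large part of each value. The groups overlapped, and the log2 fold change of -0.41 ± 0.21 (interval -0.89 to 0.07) did not pass the test (limma adjusted p = 0.179). With quantile normalization its sign turned (0.036). Its 2 transcript rows, which begin at chr6:115360951 and chr6:115422066, lay within 0.1 RPKM of each other in every library. Both Pparg stretches shown above lie downstream of the first of these ends.

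Aplnr, the apelin receptor (NM_011784, chr2:85136360-85139923, plus strand), was at 59.6, 56.8 and 57.1 RPKM in the infant libraries, the narrowest range of the 7 genes relative to the mean. The young adult libraries were spread more widely, at 86.9, 70.5 and 58.2 RPKM. The groups overlapped by 1.4 RPKM between infant 1 and young adult 3. The means were 57.8 ± 1.54 and 71.9 ± 14.4 RPKM, and the log2 fold change of 0.29 ± 0.15 (interval -0.05 to 0.63) did not pass the test (limma adjusted p = 0.183).

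In RPKM, which is a level per transcript length, the order of the means was the same in both groups: Cd36, Gpihbp1, Aplnr, Lpl, Fabp4, Fabp5 and Pparg. Neighbours in this order whose libraries overlapped were Cd36 and Gpihbp1 in infant EC and Lpl and Fabp4 in both groups. All other neighbours were separated in each group.

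**Figure D2:**
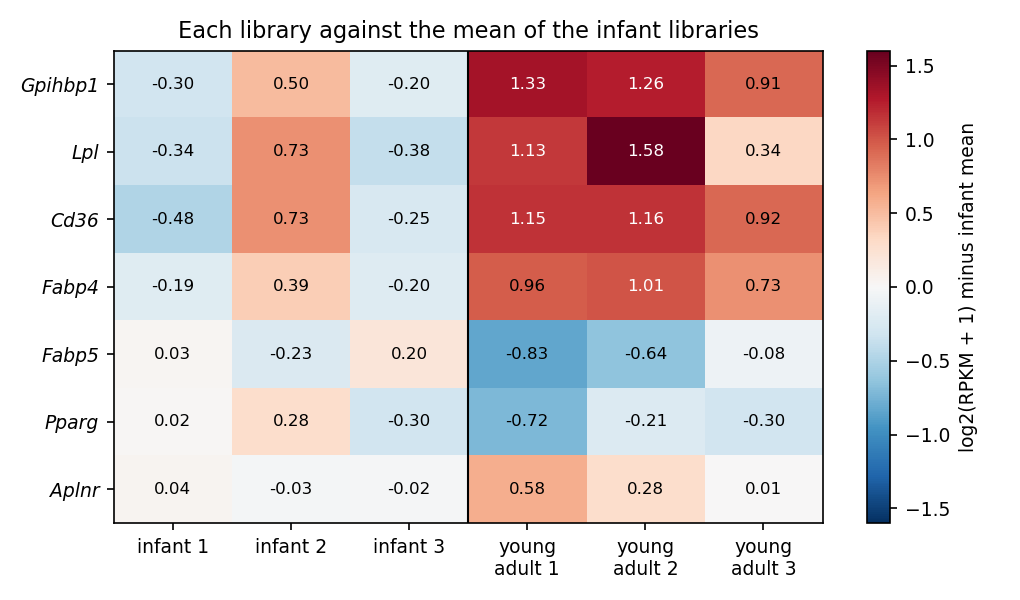
Heat map of log2(RPKM + 1) in each library minus the mean of the infant libraries, with the value in each cell. Infant 2 is positive for Gpihbp1, Lpl, Cd36 and Fabp4, whereas infant 1 and infant 3 are negative, and young adult 3 is the lowest young adult library for these genes and Aplnr.

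Within the infant group, 1 library stood apart for most of the genes. This library, infant 2, also stood apart over all genes tested, by Pearson correlation of log2(RPKM + 1). It correlated with young adult 1 to 3 at 0.9488, 0.9608 and 0.9628, whereas infant 1 and infant 3 did so at 0.8965 to 0.9117. With infant 1 and infant 3 it correlated at 0.9627 and 0.9635, and those libraries with each other at 0.9869. Infant 2 was 1.69 times the mean of infant 1 and infant 3 for Gpihbp1, 2.21 times for Lpl, 2.14 times for Cd36 and 1.55 times for Fabp4. For Fabp5 this ratio was 0.763 and for Aplnr 0.973. Infant 2 was also the highest infant library for Pparg (1.4 RPKM, against 1.0 and 0.6 RPKM), whose mean was lower in young adult EC. In the young adult group, young adult 3 was the lowest library for Gpihbp1, Lpl, Cd36, Fabp4 and Aplnr and the highest for Fabp5. Over the 6 libraries the centred log2 values of Gpihbp1 and Cd36 differed by a root mean square of 0.14, those of Gpihbp1 and Fabp4 by 0.16 and those of Cd36 and Fabp4 by 0.20. Lpl and Fabp5 lay farthest apart, at 1.07.

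**Figure D3:**
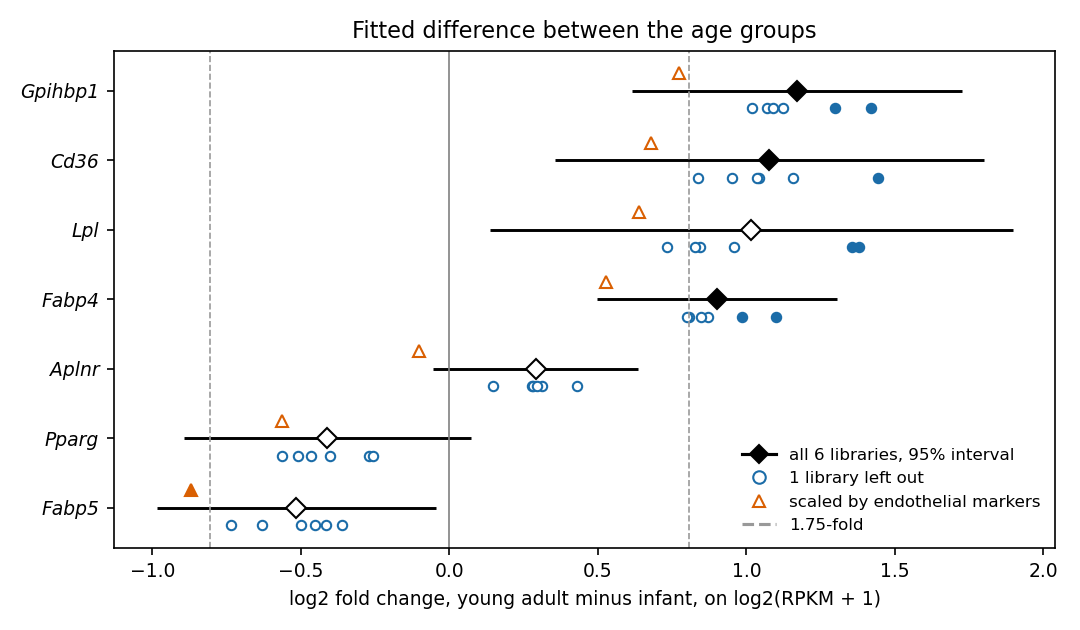
Log2 fold change, young adult against infant, of each of the 7 genes on the log2(RPKM + 1) scale as a diamond with its 95% confidence interval from limma, with circles for the fits without 1 library, triangles for the scaling by endothelial markers, filled symbols for calls and dashed lines at the fold threshold. The intervals of Gpihbp1, Lpl, Cd36 and Fabp4 lie above 0, that of Fabp5 lies below 0, and those of Pparg and Aplnr include 0. Each interval is for a single gene and is not adjusted for the number of genes tested, and Lpl and Fabp5 did not pass the adjusted test.

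Ratios between genes of the same library do not depend on how the library is scaled, and 3 of them were compared with exact two-sided permutation tests, which cannot give a p under 0.1 with 3 libraries a group. The log2 ratio of Lpl to Gpihbp1, the lipase to its anchor, was -3.86 ± 0.23 in infant and -3.97 ± 0.47 in young adult libraries (SD, n = 3 each), a difference of -0.12 (exact permutation p = 0.9). The sign of this difference turned without infant 2 (0.014) and without young adult 3 (0.11). The ratio of Fabp4 to Fabp5 was 1.18, 2.23 and 1.03 in infant and 5.43, 4.82 and 2.53 in young adult libraries. Its groups did not overlap, and the log2 ratio differed by 1.54 (exact permutation p = 0.1, 0.15 after Benjamini-Hochberg adjustment over the 3 ratios). The log2 ratio of Aplnr to Gpihbp1, both general capillary markers, was -2.20 ± 0.47 in infant and -3.08 ± 0.12 in young adult libraries. It differed by -0.88, again without overlap (exact permutation p = 0.1, adjusted 0.15).

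The other genes of the pathway were given by 8 lists that overlap in part. Over all lists 108 genes were tested, of which 9 were called higher and 19 lower. Without the 7 genes described above, 6 of 101 were called higher and 19 lower, or 24.8% in either direction, with a median log2 fold change of -0.12. Of all genes tested, 3.33% were called higher, 8.1% lower and 11.4% in either direction. The lists were chosen with earlier results of these data known. Most of the calls in the lower direction came from genes around lipoprotein lipolysis, where 1 of 18 tested genes rose, 10 fell and the median was -0.85. The gene that rose there was Gpihbp1. The median of this list was -1.28 with a pseudocount of 0.1, -0.26 with a pseudocount of 5, -0.62 with a minimum mean of 1 RPKM and -0.41 with quantile normalization. Its 11 calls became 4 with a pseudocount of 5 and 6 with quantile normalization. Leaving out 1 library gave between 15 and 34 calls over all lists, with 16 without infant 1, 15 without young adult 1 and 18 without young adult 2. With a pseudocount of 5, which lowers the weight of genes with low RPKM, 9 calls were made, and Slc27a1, Fabp3, Cpt1c, Acads, Thrsp, Fads2 and Fads3, all described below, were not among them.

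Angptl4, a secreted inhibitor of lipoprotein lipase, was at 16.5, 7.4 and 15.8 RPKM in infant and at 0.2, 0.8 and 0.9 RPKM in young adult libraries. The groups were far apart, and Angptl4 fell by 3.08 on the log2 scale (limma adjusted p = 0.00128), a call kept without any 1 library. Apoe, an apolipoprotein of lipoprotein remnants, fell from 35.3 ± 3.76 to 8.6 ± 2.46 RPKM (log2 fold change -1.95, limma adjusted p = 0.00132). Lrp1, a receptor for such remnants, fell by 2.37 on the log2 scale (limma adjusted p = 0.0102). Infant 2 was the lowest infant library for Angptl4 (7.4 RPKM) and Lrp1 (2.6 RPKM, against 12.0 and 10.2 RPKM). Lipa, the lysosomal lipase, did not pass the test (log2 fold change -0.32).

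Among genes of fatty acid uptake and binding, 2 of 15 tested genes rose (Cd36 and Fabp4) and 2 fell, with a median of -0.05. The genes that fell were Slc27a1, a fatty acid transport protein (-1.76, limma adjusted p = 0.00672), and Fabp3, the binding protein known from heart and muscle (-1.42, limma adjusted p = 0.0143). Fabp3 lost its call without young adult 1 (limma adjusted p = 0.0605). Scarb1, a lipoprotein receptor (0.31), and Dbi, an acyl-CoA binding protein (0.25), did not pass.

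Of the PPAR receptors and coregulators, 1 of 13 rose, 0 fell and the median was -0.05. Cebpd, a transcription factor of early adipocyte differentiation, rose from 3.33 ± 0.473 to 6.87 ± 0.404 RPKM (log2 fold change 0.86, limma adjusted p = 0.00316), but lost its call without infant 1 (0.77), with a pseudocount of 5, with equal totals without globin and in the scaling by endothelial markers (0.54). The coregulators Med1 (0.01) and Ncor1 (-0.10) did not pass. Ppard, the receptor related to Pparg, was at 1.0 ± 0.1 and 1.0 ± 0.3 RPKM, and Rxra, a dimer partner of PPAR proteins, at 3.7 ± 0.721 and 4.27 ± 0.603 RPKM.

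Of genes known as PPAR targets in other tissues, 4 of 18 rose and 3 fell, with a median of -0.03. Cyp4b1, a fatty acid hydroxylase abundant in lung, was at 667.5, 1634.3 and 748.5 RPKM in infant and at 2093.8, 2153.9 and 2650.9 RPKM in young adult libraries. Cyp4b1 had a log2 fold change of 1.29 (limma adjusted p = 0.0339) and Txnip, a regulator of glucose uptake, of 1.19 (limma adjusted p = 0.0416). As for Cd36, infant 2 was the highest infant library for both, and of the 6 fits without 1 library only that without infant 2 kept their calls. Txnip also lost its call with robust eBayes and in the scaling by endothelial markers (0.80). The other 2 genes of this list that rose were Cd36 and Fabp4. Angptl4 and Slc27a1, described above, were among the genes that fell.

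Downstream, fatty acid oxidation held 0 genes that rose and 2 that fell among 23 tested (median -0.11), namely Cpt1c, a carnitine palmitoyltransferase (-1.76, limma adjusted p = 0.00847), and Acads, an acyl-CoA dehydrogenase (-0.89, limma adjusted p = 0.0286). Acads lost its call without infant 1, infant 3, young adult 1 or young adult 2. The most abundant genes of this list, Ech1 (0.35) and Acadvl (0.13), did not pass.

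Among 16 genes of lipid droplet storage and release, 1 rose and 1 fell (median -0.02). Lipe, the hormone-sensitive lipase, was at 8.7, 10.1 and 6.3 RPKM in infant and at 16.5, 23.7 and 20.3 RPKM in young adult libraries. Its groups did not overlap, and Lipe rose with a log2 fold change of 1.18 (limma adjusted p = 0.00541), a call kept without any 1 library. G0s2, an inhibitor of the lipase PNPLA2, fell by 1.90 on the log2 scale (limma adjusted p = 0.0137), but lost its call without infant 1, young adult 1 or young adult 2. Hilpda, a droplet protein that inhibits PNPLA2, was at 99.9, 258.9 and 120.5 RPKM in infant libraries and between 230.3 and 243.3 RPKM in young adult libraries, so that infant 2 alone overlapped with the young adult group. Neither Hilpda (0.69) nor Pnpla2 itself (0.32) passed, but Hilpda was called without infant 2. In fatty acid synthesis, 2 of 15 genes rose and 3 fell (median -0.09). Thrsp, a regulator of lipid synthesis, rose from 0.733 ± 0.611 to 4.6 ± 1.04 RPKM, whereas the desaturase family members Fads2 (-1.21) and Fads3 (-1.12) fell. Fads2 lost its call without young adult 1 (limma adjusted p = 0.0501). The elongases Elovl5 (0.74, limma adjusted p = 0.02) and Elovl1 (0.59, limma adjusted p = 0.0126) were under the fold threshold, and Elovl5 was called without infant 2 or young adult 3.

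**Figure D4:**
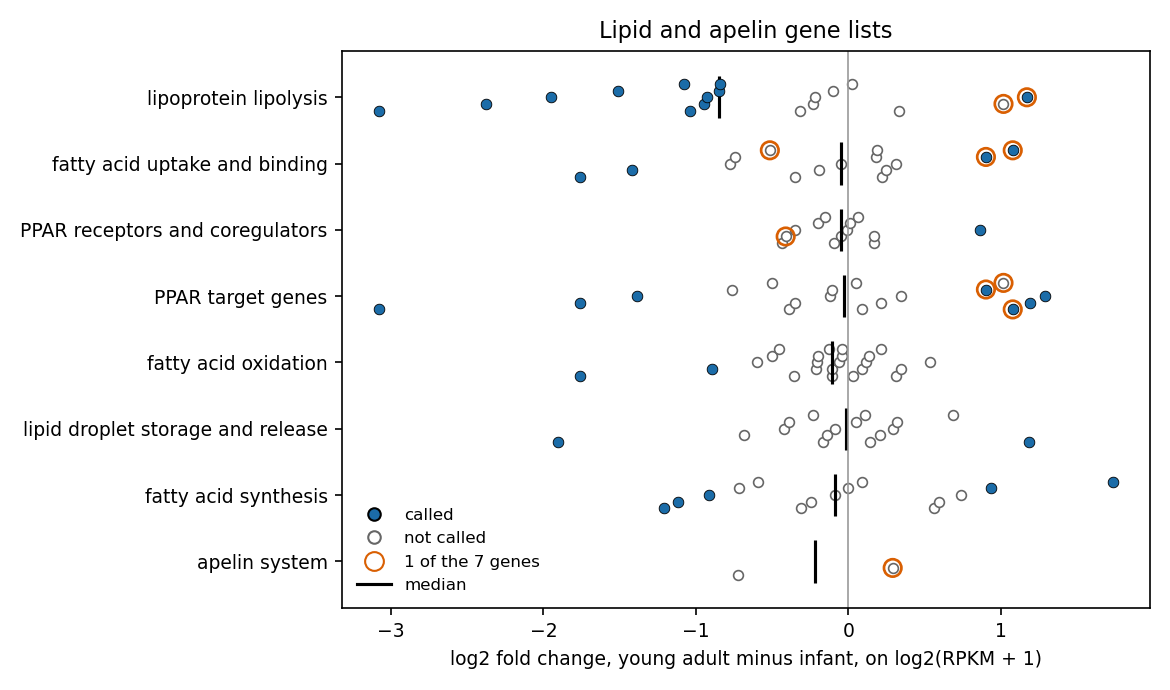
Log2 fold changes, young adult against infant, of the tested genes of each pathway list, with called genes marked and the median of each list drawn. The lipolysis list lies mostly below 0 with a median of -0.85, and the medians of the uptake, PPAR, oxidation, droplet and synthesis lists lie between -0.11 and -0.02.

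In the apelin system the ligand and the receptor had opposite signs, except that Aplnr was also below 0 in the scaling by endothelial markers described further on, and neither passed the test. Apln was at 43.2, 67.3 and 46.1 RPKM in infant and at 27.0, 23.3 and 45.3 RPKM in young adult libraries. Its log2 fold change was -0.72 (limma adjusted p = 0.0783). The groups overlapped through young adult 3, and Apln was called lower without it, in the scaling by endothelial markers (-1.11, limma adjusted p = 0.00557) and with equal totals without globin.

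Of the 8 general capillary markers, 4 were called higher, with a median log2 fold change of 1.02, against 3.33% and -0.07 over all genes tested. Gpihbp1 was 1 of them, and the others were Kit, a receptor tyrosine kinase (1.11, limma adjusted p = 0.00864), Cd93, a glycoprotein of the EC surface (1.09, limma adjusted p = 0.00585), and Ptprb, an endothelial phosphatase (1.18, limma adjusted p = 0.00602). Plvap (0.96), Sema3c (0.66), Cxcl12 (0.05) and Aplnr did not pass. None of the 4 calls remained with the libraries scaled to endothelial markers, a choice made after the data were seen, where Gpihbp1 was at 0.77, Kit at 0.72, Cd93 at 0.70 and Ptprb at 0.79, and the median of the list was 0.63. The summed RPKM of the list was 685.9, 806.0 and 610.7 in infant and 1528.6, 1498.0 and 1115.5 in young adult libraries, without overlap. The aerocyte markers summed to 1860.7, 2960.7 and 1779.7 in infant and to 1899.0, 1992.2 and 2815.3 in young adult libraries, with overlap, and 1 of 10 was called higher (Rprml) and 1 lower (Sirpa). Young adult 3, the lowest young adult library for Gpihbp1, Cd36, Lpl and Fabp4, had the lowest general capillary sum and the highest aerocyte sum of its group. Gpihbp1 is itself part of the general capillary sum (672.8 of 1528.6 RPKM in young adult 1), so its order is not independent of that sum. The infant library highest for these 4 genes, infant 2, had the highest sum of its group in both lists (806.0 and 2960.7 RPKM). Its general capillary sum holds Gpihbp1 too (377.6 of 806.0 RPKM). Of the other markers of that list, Cd93 and Ptprb were highest in infant 2, but Kit, Plvap, Sema3c, Cxcl12 and Aplnr in infant 1. In infant 2 the aerocyte sum did not run opposite to Gpihbp1, Cd36, Lpl and Fabp4. The part of the capillary cell types in these differences was not tested.

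Markers of other cells differed between the groups as well. Fibroblast markers summed to 1277.0, 325.9 and 886.8 RPKM in infant and to between 10.8 and 22.8 RPKM in young adult libraries, and 10 of 11 were called lower. Col1a1, a collagen gene of fibroblasts, was at 305.6, 59.2 and 128.5 RPKM in infant and at no more than 2.0 RPKM in young adult libraries. Pdgfra, which defines lung fibroblasts, was at 87.2, 2.6 and 66.8 RPKM in infant and at most at 0.6 RPKM in young adult libraries. Infant 2 was the highest infant library for Gpihbp1, Cd36, Lpl and Fabp4 and the lowest for Angptl4 and Lrp1. In its group it had the lowest fibroblast, mural (112.2 RPKM) and erythroid (9655.9 RPKM) marker sums and the highest endothelial sum. Some markers of these lists had another order. Dcn (7.6, 19.9 and 8.0 RPKM in infant 1 to 3) and Lum (4.1, 14.4 and 4.7 RPKM) of the fibroblast list were highest in infant 2. Npnt of the fibroblast list and Higd1b, Cox4i2 and Notch3 of the mural list were lowest in infant 1. The endothelial markers Tie1, Sox17 and Sox18 were highest in infant 1. Mural cell markers summed to between 112.2 and 293.9 RPKM in infant and between 17.3 and 24.7 RPKM in young adult libraries, and 9 of 10 were called lower. Endothelial markers summed to 3712.4, 5065.1 and 3386.5 RPKM in infant and to 5517.7, 5827.6 and 6037.2 RPKM in young adult libraries, and 1 of 16 was called, Tek, which was higher. The defining markers Pecam1 (309.8 to 657.8 RPKM) and Cdh5 (213.8 to 316.9 RPKM) were abundant in every library. In the scaling to these endothelial markers, the median of all genes moved to -0.40, and the log2 fold changes were 0.77 for Gpihbp1, 0.68 for Cd36 and 0.53 for Fabp4, all under the fold threshold. In that scaling Aplnr was at -0.10 and Fabp5 was called lower (-0.87, limma adjusted p = 0.0204). The part of the other cells in these differences was not tested.

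Alveolar macrophages and adipocytes also use Fabp4, Fabp5, Lpl and Pparg. Of 16 macrophage markers, 13 were listed, 2 were called lower and the infant libraries had sums of 343.8, 573.6 and 396.0 RPKM, against 146.1, 336.5 and 624.3 RPKM in the young adult libraries. Most of each sum was Lyz2, a lysozyme gene (275.3, 467.1 and 330.2 RPKM in infant libraries, then 134.3, 285.6 and 515.5 RPKM in young adult libraries). Ptprc, whose protein was used to remove leukocytes in the sort, was at 4.2, 3.0 and 7.0 RPKM in infant libraries, against 0.2, 1.0 and 1.8 RPKM in young adult libraries. Ptprc was called lower (-1.54, limma adjusted p = 0.0182), but not without infant 1, infant 3, young adult 1 or young adult 2. Marco, which defines these macrophages, was between 0.0 and 1.1 RPKM in every library. Chil3 was at 31.2, 57.3 and 14.5 RPKM in infant libraries 1 to 3 and at 6.4, 35.7 and 68.3 RPKM in young adult libraries 1 to 3. Among the young adult libraries, Fabp5 (4.9, 5.7 and 8.9 RPKM) had the same order as these sums. Sftpc of alveolar type 2 cells (1450.9, 2826.7 and 4883.1 RPKM) had this order too, as did Lyz2. By their order in these libraries, the macrophage sums and Sftpc cannot be told apart. Of 11 alveolar type 2 markers 1 was called lower, and the part of macrophages and alveolar type 2 cells in Fabp5 was not tested. The infant libraries did not have this order, since infant 2 had the lowest Fabp5 (7.9 RPKM) but the highest macrophage sum and the highest Sftpc (4683.1 RPKM). Of 8 adipocyte markers 1 was listed, Cidec, at no more than 1.4 RPKM.

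**Figure D5:**
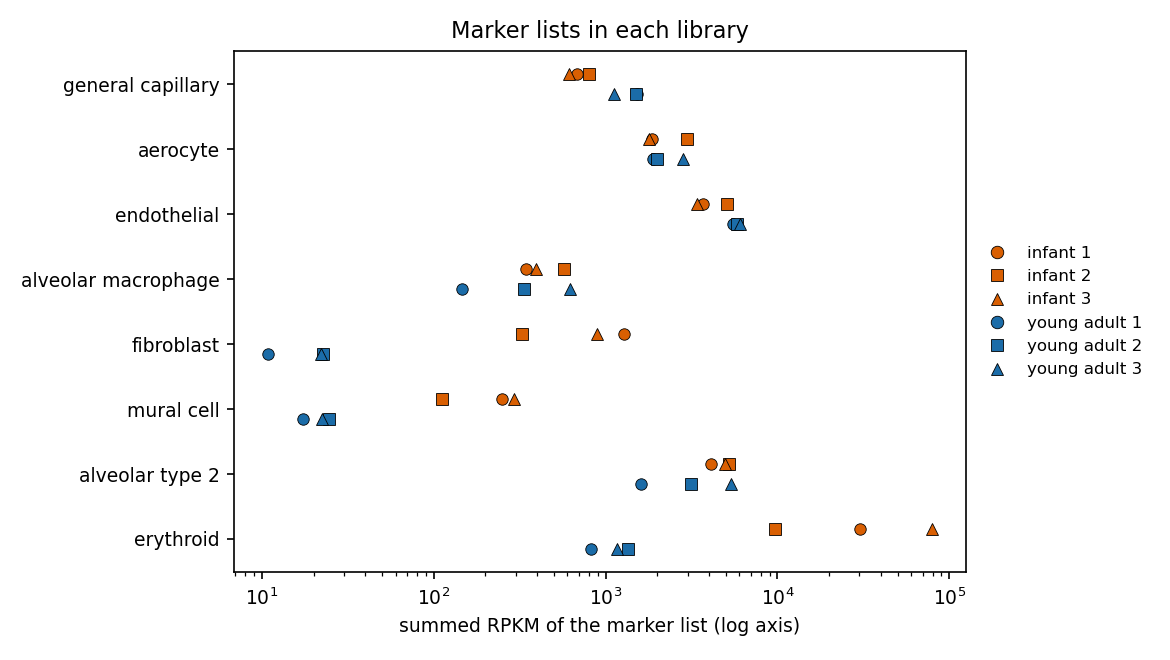
Summed RPKM of each marker list in each library on a log axis, with infant libraries in orange and young adult libraries in blue. The groups separate for the general capillary list (610.7 to 806.0 against 1115.5 to 1528.6) and for the endothelial, fibroblast, mural and erythroid lists, and overlap for the aerocyte, macrophage and alveolar type 2 lists.

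Globin genes took 3.41 to 23.5% of the summed RPKM in infant and 0.307 to 0.487% in young adult libraries, and 7 of 7 listed erythroid markers were called lower. The Y-linked gene Ddx3y was at 20.6, 16.5 and 21.9 RPKM in infant and at 0.0 RPKM in all young adult libraries, although the methods name female mice. Xist, another sex-linked gene, was at 8.2, 8.7 and 7.6 RPKM in infant and at 15.6, 12.5 and 13.4 RPKM in young adult libraries. The infant libraries therefore held both transcripts. Age and sex cannot be told apart in any comparison here. Reads per library were not analysed here, and the study gives its depth only as an average coverage.

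For each of the 7 genes, the genes with the most similar values were found by the root mean square difference of centred log2(RPKM + 1) over the 6 libraries, among 6983 genes with a mean of at least 5 RPKM (6984 for Pparg). The nearest gene was Tm4sf1 for Gpihbp1 (0.09), followed by 6430548M08Rik and Sp100. For Cd36 it was S1pr1, the sphingosine-1-phosphate receptor of EC (0.09), followed by AU020206 and Serinc3. For Fabp4 it was Ece1, the endothelin-converting enzyme (0.06), followed by Plscr4 and BC028528. Lpl had no gene as near, with Sult1a1 at 0.18, Inpp5d at 0.24 and Plcb4 at 0.24. Fabp5 was nearest to Tbxas1, Egflam and Lrp4, Pparg to Atg13, Mettl24 and Ick, and Aplnr to Gm7334, Tmem170b and Maml2.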

How the data were processed

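The authors aligned reads to mm10 with STAR, counted on RefSeq and tested with DESeq2. The STAR version and the program behind the RPKM are not given in the sources used here. The deposited table holds the authors' RPKM per RefSeq transcript, rounded to 1 decimal, with 0 further columns of values and no comparison columns. The study gives depth as an average coverage, reads per library are unknown here, and no counting error could be attached. Symbols turned into dates (24 rows, 11 genes) were restored. Of each gene the row with the highest mean was kept (12623 genes, 2842 with more than 1 row).

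As the values are RPKM, limma 3.58.1 in R 4.3.3 (lmFit and eBayes with trend) was run on log2(RPKM + 1) in all 6 libraries with age as the only term, for 12458 genes with at least 1 RPKM in at least 1 library, with Benjamini-Hochberg adjustment. The pseudocount understates changes of low genes. Calls needed an adjusted p under 0.05 and a fold over 1.75, the fold threshold of the study. Ratios were compared by exact permutation. Error values are SD or, for fold changes, SE. The limma p-values set the difference between the groups against the spread between these libraries, which eBayes moderates with the values of all genes. Confidence intervals are for single genes and were not adjusted for the number of genes. Tested on simulated data (12458 genes, 200 changed), the fit recovered 78% of changes of 1 and 97% of changes of 2 on the log2 scale, with 2 unchanged genes called. The simulated errors were normal, independent between genes and equally wide in both groups. Changes were given only to genes with a mean log2(RPKM + 1) above 2. The 200 changed genes were fewer than the 1424 called in the data. The adjustment of p depends on that share, so the rates may differ in the data. Shifts of a library shared by many genes were not simulated, so these rates do not cover them. The genes and lists were chosen with earlier results of these data known. Named were the 7 genes, all genes of lists with up to 3 tested, otherwise the 3 called genes with the largest change and the 2 with the highest mean of each list, defining markers and the 3 most similar genes. Ppard, Rxra, Cidec, Tek, Rprml, Sirpa and the other general capillary markers were named after their values were seen. The values of 1 gene that the rule names are not reported here. In all, 22 alternatives were tried, 21 of them planned: pseudocounts, filters, scalings, fit settings, transcript rows, a replicate block, a test against the fold, and leaving out each library.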

Additional observations from a re-analysis of the deposited data

How the results depend on the processing

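Leaving out 1 library gave log2 fold changes of 1.02 to 1.42 for Gpihbp1, 0.73 to 1.38 for Lpl, 0.84 to 1.44 for Cd36, 0.80 to 1.10 for Fabp4, -0.73 to -0.36 for Fabp5, -0.56 to -0.26 for Pparg and 0.15 to 0.43 for Aplnr. It gave 0 to 4 of the 7 genes called, 843 to 1874 of all genes, 15 to 34 pathway genes, and differences of -0.36 to 0.11 for Lpl to Gpihbp1, 1.32 to 1.88 for Fabp4 to Fabp5 and -1.14 to -0.70 for Aplnr to Gpihbp1. Lpl to Gpihbp1 turned sign without infant 2 (0.014) and without young adult 3 (0.11). Tested against the fold threshold itself, Gpihbp1 (1.17), Cd36 (1.08) and Fabp4 (0.90) lost their calls, leaving 0 of the 7 genes, 176 of all genes and 2 pathway genes. With the endothelial-marker scaling, Gpihbp1 (0.77), Cd36 (0.68) and Fabp4 (0.53) lost their calls, Fabp5 gained one (-0.87), Aplnr turned sign (-0.10), and 1 of the 7 genes and 2190 of all genes were called. Cd36 also lost its call with quantile normalization (0.75) and with rows summed (1.08, limma adjusted p = 0.0505), and Fabp4 with a pseudocount of 5 (0.74) and with equal totals without globin (0.80). Pparg turned sign with quantile normalization (0.036). A pseudocount of 5 gave 578 of all genes and 9 pathway genes. Lpl was called with array weights (1.33) and with the replicate block (1.02). The block gave 4 of the 7 genes and 1371 of all genes, but the replicate numbers did not pair the samples (correlations of same-numbered deviations 0.028, -0.11 and -0.021). Of all calls, 29.1% were higher, 46.5% with quantile normalization, 41.5% with a pseudocount of 5 and 10.2% with the endothelial scaling. The cause of these differences was not tested. Pparg was not tested with a minimum mean of 1 RPKM. Without read counts, limits set by depth are unknown.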

Other observations

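Among the proteins of the sort, transcripts of Cd34 were at 449.4, 500.6 and 422.7 RPKM in infant and at 254.4, 278.3 and 354.8 RPKM in young adult libraries. The log2 fold change of -0.64 was under the fold threshold (limma adjusted p = 0.0301). Lyve1, whose protein was used to remove lymphatic cells, was at 68.6, 171.4 and 82.7 RPKM in infant and rose to 396.4, 307.9 and 252.9 RPKM in young adult EC, a log2 fold change of 1.65 (limma adjusted p = 0.0132). Like Gpihbp1 and Cd36, Lyve1 was highest in infant 2 and lowest in young adult 3 of their groups. Pdpn, the other lymphatic protein of the sort, was between 0.3 and 1.7 RPKM in all libraries.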
